A study of Mus musculus with 8 samples.

Results

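The Hox genes of the mouse small intestine before birth are described here, with 1 probe for each of 39 genes out of 36161 gene names on the array. Members were the non-control probes whose gene name in the scanner files was Hox, a cluster letter from a to d and a number, and for each gene the probe with the highest mean log2 processed intensity over all 8 arrays was used. The choice used names and overall brightness only, not the groups. All 39 probes carried a RefSeq accession that the RefSeq gene table gives to the same gene.

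Expression was measured on 8 single-colour Agilent arrays, each with RNA of mouse small intestine at embryonic stage E18.5. The 4 controls were Rfx6 fl/+ (replicates 1, 3 and 4) or Rfx6 fl/fl (replicate 2), without Cre named in their labels, and the 4 mutants were Rfx6 fl/fl Ngn3-cre. Rfx6 is a transcription factor needed by gut and pancreas endocrine cells, and Ngn3-Cre acts in endocrine progenitors, a small share of the gut wall, so the RNA was mostly of other cells. The floxed allele was carried by both groups, and effects of Cre and of Rfx6 loss share the contrast. The labels do not say whether an extract came from 1 embryo or several, so p-values measure the spread between these samples. In such tissue, fewer cells of a type and less RNA per cell cannot be told apart.

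Hox genes encode homeodomain transcription factors that give cells their position along the head to tail axis. They lie in 4 clusters, HoxA to HoxD, on separate chromosomes, and genes of the same paralogue number in different clusters descend from a common ancestor. Within a cluster, low numbers are switched on earlier and nearer the head, and high numbers later and nearer the tail. In the gut they are known mainly from the mesenchyme and the enteric nervous system, where the highest numbers mark the hindgut.

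The arrays drew a sharp line between paralogue numbers 9 and 10. A probe counted as well above background where the scanner software flagged 50% or more of its spots so. By this rule 24 of the 39 Hox genes (61.5%) were well above background on all 8 arrays, against 63.3% of all genes on the array. All 24 genes of paralogue groups 2 to 9 were well above background on at least 4 arrays, 23 of them on all 8. Of the 12 genes of groups 10 to 13, 0 reached 4 arrays: 8 were above background on no array and 4 on 1 array. The line fell at the same number in each cluster that has these genes: between Hoxa9 and Hoxa10, Hoxb9 and Hoxb13, Hoxc9 and Hoxc10, and Hoxd9 and Hoxd10. It is a statement about these probes, since a probe that binds weakly can miss a transcript that is present.

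**Figure D1:**
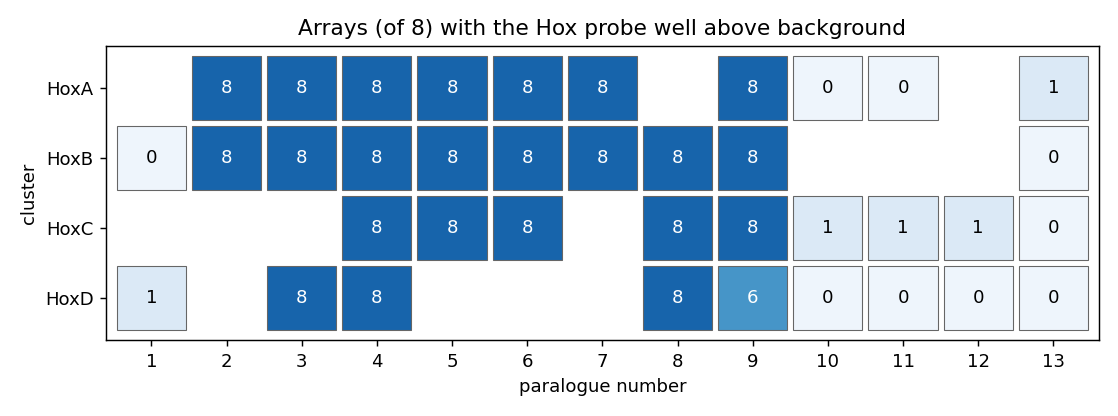
Number of the 8 arrays on which the probe of each Hox gene was well above background, by cluster (rows) and paralogue number (columns); an empty place has no member or is not shown. Groups 2 to 9 read 8 throughout except Hoxd9, which reads 6, while groups 10 to 13 read 0 or 1.

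The upstream sequences of the genes on either side of the line are shown for HoxA and HoxD, where the RefSeq table (build GRCm38.p6, which differs from the mm9 build of the probe positions) holds both. Each runs 5′ to 3′ over the 250 bases before the annotated start, on the strand of the gene, with CpG dinucleotides in capitals, because CpG-rich DNA is where Polycomb and Trithorax proteins act in Hox clusters.
Hoxa9, well above background on 8 arrays, chr6:52227371-52227620, minus strand: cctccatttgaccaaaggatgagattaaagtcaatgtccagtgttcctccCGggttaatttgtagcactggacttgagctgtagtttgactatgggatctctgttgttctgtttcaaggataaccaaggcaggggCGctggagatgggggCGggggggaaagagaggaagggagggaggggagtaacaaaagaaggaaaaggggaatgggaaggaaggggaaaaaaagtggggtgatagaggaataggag
Hoxa10, on 0 arrays, chr6:52234940-52235189, minus strand: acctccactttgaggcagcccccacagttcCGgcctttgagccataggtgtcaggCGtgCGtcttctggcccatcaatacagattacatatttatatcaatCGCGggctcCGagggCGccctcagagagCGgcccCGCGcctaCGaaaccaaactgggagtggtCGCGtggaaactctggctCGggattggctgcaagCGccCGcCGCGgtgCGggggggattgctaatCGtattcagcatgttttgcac
Hoxd9, on 6 arrays, chr2:74697513-74697762, plus strand: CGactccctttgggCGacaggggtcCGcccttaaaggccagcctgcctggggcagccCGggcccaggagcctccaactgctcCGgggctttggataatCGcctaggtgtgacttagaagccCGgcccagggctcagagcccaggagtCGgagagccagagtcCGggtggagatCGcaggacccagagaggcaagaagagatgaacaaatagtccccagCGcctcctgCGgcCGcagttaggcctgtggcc
Hoxd10, on 0 arrays, chr2:74691641-74691890, plus strand: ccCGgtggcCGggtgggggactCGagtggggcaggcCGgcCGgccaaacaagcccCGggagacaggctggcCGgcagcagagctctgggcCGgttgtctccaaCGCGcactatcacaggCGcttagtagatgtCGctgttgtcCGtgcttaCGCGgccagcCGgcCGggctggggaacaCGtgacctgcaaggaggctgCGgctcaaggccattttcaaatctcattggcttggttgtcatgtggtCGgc

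The Hoxa9 window held 3 CpG dinucleotides and the Hoxa10 window 20, while the Hoxd9 window held 13 and the Hoxd10 window 20. A second annotated start of Hoxa10 held 7. The table matched 22 of the 39 genes with 24 windows. The 13 windows of genes tested here had a median of 12 CpG dinucleotides (3 to 28), and the 11 windows of the other members a median of 20 (2 to 35), against 6 over all 32851 promoters. TTTAT, the core that caudal-type (Cdx) homeodomain proteins bind, was searched on both strands and occurred in 5 of the 13 windows of tested genes and 4 of the 11 others, against 37.3% of all promoters. TGATNNAT, a joint Hox and Pbx site, occurred in 2 of 13 and 2 of 11, against 7.68% of all. TATAAA, in which every match also holds a TTTAT on the opposite strand, occurred in 2 of 13 and 2 of 11, against 12.4%. These matches are letters in a window and were not tested between the sets.

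Levels are log2 processed intensities after subtraction of the 75th percentile of log2 intensity on that array, so 0 is the level of that percentile. Probes bind with different strength, so the order of levels between genes is not an order of RNA amounts. Across the arrays the tested HoxA genes lay between -5.22 and 0.84, HoxB genes between -3.63 and 1.13, HoxC genes between -4.59 and 1.43, and HoxD genes between -5.61 and -0.15.

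At the head end of the clusters, 2 genes of paralogue group 1 were not tested. Hoxb1, which specifies a hindbrain segment and was read by 10 spots of its probe per array, was above background on 0 arrays. Hoxd1 reached background on mutant replicate 2 alone, at -3.79, with the other 7 arrays at -8.16 to -7.38.

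Some members of groups 10 to 13 stood above background on a single array. Hoxa13 and Hoxd13 are known for the hindgut and the digits, and Hoxc10, Hoxc11 and Hoxc12 for the lumbar region and the hindlimb. Control replicate 1 alone was above background for Hoxa13 (-4.62, other arrays -7.55 to -6.18), Hoxc10 (-5.19, others -7.72 to -6.55) and Hoxc12 (-4.97, others -7.60 to -5.78). That array also had the highest share of probes well above background, 69.9%, against 59.7% to 67.6% on the others. Hoxc11 was above background on control replicate 2 alone, at -3.71, with the others at -8.24 to -7.37. Each of these readings came from a single spot. The other probe of Hoxa13 was above background on 0 arrays. Hoxa10, Hoxa11, Hoxb13, Hoxc13, Hoxd10, Hoxd11, Hoxd12 and Hoxd13 were above background on 0 arrays, and Hoxa11 was read by 10 spots per array. No fold is given for these genes, because both groups were below background.

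Transcripts from the opposite strand of the HoxA cluster were measured by other probes. The Hoxa11 antisense RNA (Hoxa11as, now Hoxa11os) was well above background on 7 of 8 arrays, at -5.07 to -4.21, where Hoxa11 itself was on 0. Hoxaas3, named 2700086A05Rik on the array, was above background on all 8, at -2.03 to -1.27. Neither differed between the groups beyond the spread (limma differences of 0.28 and -0.07, adjusted p = 0.821 and 0.935).

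The comparison of mutants with controls asked which genes change when Rfx6 is lost in endocrine cells. In the Hox genes no difference was detected: of the 25 that could be tested, 0 passed a limma adjusted p of 0.05, 0 had an unadjusted p under 0.05, and 0 had groups that did not overlap. Over all 25354 genes tested, the shares were 0.0592% (15 genes), 5.33% and 4.67%. The count of 15 became 9 without control replicate 2 and 9 without control replicate 4. Over all genes, 14 calls were lower in mutants (0.0552%) and 1 higher (0.00394%), and no Hox gene was called in either direction. Of the 25 Hox genes, 13 were higher and 12 lower in mutants, with a median difference of 0.0031 on the log2 scale against 0.03 over all genes. The smallest adjusted p among them was 0.821. For 24 of the 25, the 95% interval of the difference lay wholly within 2-fold in either direction, and Hoxc9 was the exception. The same held for 22661 of all 25354 genes tested. By cluster, differences were above 0 for 7 of 8 HoxA genes, 4 of 8 HoxB, 0 of 5 HoxC and 2 of 4 HoxD, and none of the 5 HoxC differences (-0.45 to -0.02) passed the test.

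**Figure D2:**
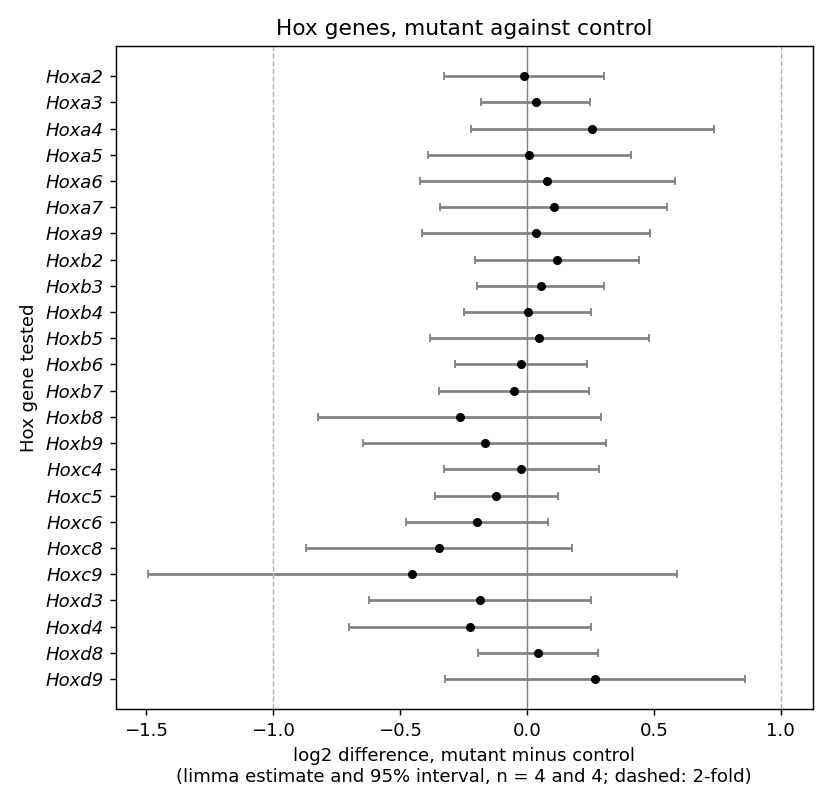
Log2 difference of 24 tested Hox genes, mutant minus control (limma estimate, with the 95% interval as bars, 4 arrays per group; dashed lines mark 2-fold). All 24 intervals cover 0, and only that of Hoxc9 reaches past a dashed line.

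In paralogue groups 2 and 3 no gene passed the test, and Hoxa3 varied least between arrays. Hoxa3, a gene of pharyngeal arch and neck structures (chromosome 6, 52119087 to 52119146, mm9), ran from 0.59 to 0.84 over all 8 arrays, the narrowest range of the tested members, with 0.71 ± 0.10 in controls and 0.74 ± 0.10 in mutants (SD, n = 4 each). Hoxa2, which patterns the second pharyngeal arch, was at -1.52 ± 0.16 and -1.53 ± 0.23. Hoxb3 was at -1.32 ± 0.15 and -1.27 ± 0.12, and its other probe, above background on all 8 arrays as well, differed by 0.0034 between the group means. Hoxd3 was at -3.01 ± 0.34 and -3.19 ± 0.25, a difference of -0.18 (SE 0.19).

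Hoxb2, a hindbrain patterning gene, had one of the 3 largest positive differences. Its levels were -0.15, -0.06, -0.29 and 0.04 in control replicates 1 to 4 and 0.32, -0.30, -0.03 and 0.05 in the mutants. Mutant replicate 1 was the highest array and mutant replicate 2 the lowest, so the groups overlapped fully. The difference was 0.12 (SE 0.14, 95% interval -0.20 to 0.44, limma adjusted p = 0.839).

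In paralogue group 4, Hoxa4 was at -2.0, -2.44, -2.84 and -2.82 in the controls and -2.05, -2.58, -2.05 and -2.38 in the mutants. Control replicate 1 was the highest of all arrays and control replicates 3 and 4 the lowest. The difference was 0.26 (SE 0.21, 95% interval -0.22 to 0.74, limma adjusted p = 0.821), and it was -0.10 within the first row of the slide and 0.61 within the second. It was 0.43 without control replicate 1, 0.15 without control replicate 3 and 0.16 without control replicate 4. Hoxb4, a gene known from blood stem cells, had a difference of 0.0031 (SE 0.11) between means of 0.93 ± 0.13 and 0.93 ± 0.15 (SD, n = 4 each). Hoxc4 was at 0.48 ± 0.15 and 0.46 ± 0.22. Hoxd4 was at -0.34 ± 0.25 and -0.56 ± 0.40, with mutant replicate 1 the lowest array at -1.13.

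Groups 5 to 7 hold the members best known in gut development. Hoxa5, a gene of lung and gut mesenchyme (chromosome 6, 52152049 to 52152108, mm9), was at -0.32 ± 0.32 in controls and -0.31 ± 0.21 in mutants (SD, n = 4 each). Hoxb5, which acts in enteric neural crest cells (chromosome 11, 96167130 to 96167189, mm9), was at 0.33 ± 0.35 and 0.38 ± 0.24. Hoxc5 was at -1.76 ± 0.13 and -1.88 ± 0.13. For these 3 genes the difference was 0.01 (SE 0.17), 0.05 (SE 0.19) and -0.12 (SE 0.11), each smaller than the spread within groups.

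Hoxc6 had the smallest unadjusted p of the members, 0.148 in limma (adjusted p = 0.821). It was at 1.24, 1.35, 1.16 and 1.43 in the controls and 1.19, 1.15, 0.80 and 1.26 in the mutants. Mutant replicate 3 was the lowest array, and the other 3 mutants lay among or just below the controls. The difference was -0.20 (SE 0.12, 95% interval -0.47 to 0.08), and it was -0.096 without mutant replicate 3. Hoxa6 was at -4.25 ± 0.27 and -4.17 ± 0.42, and Hoxb6 at -0.03 ± 0.21 and -0.06 ± 0.04. Hoxa7 was at -0.02 ± 0.28 and 0.09 ± 0.33, and Hoxb7 at 0.21 ± 0.23 and 0.16 ± 0.11 (SD, n = 4 each).

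The range over the 8 arrays had a median of 1.06 log2 units in group 8 and 1.03 in group 9. These were the widest of the groups with tested genes, and both groups pattern the trunk. Several of their probes were dim, with mean levels of -4.09 for Hoxc8, -4.76 for Hoxa9 and -5.06 for Hoxd9. Dim Hoxa6 of group 6 (-4.21) ranged over 1.00 as well, and Hoxd8 (-1.56) over 0.37, but Hoxb8 (-1.36) over 1.19. The part of probe brightness in these ranges was not tested. Hoxc9 (chromosome 15, 102814735 to 102814794, mm9) was at -3.63, -2.08, -3.03 and -2.35 in control replicates 1 to 4 and -4.21, -3.55, -2.80 and -2.32 in mutant replicates 1 to 4. Control replicates 2 and 4 and mutant replicate 4 were high, control replicate 1 and mutant replicates 1 and 2 were low, so each group held both high and low arrays. From the lowest to the highest array it varied 4.36-fold, the widest range of the 25, against a median range of 0.69 log2 units over the tested Hox genes and 0.61 over all genes tested. The difference was -0.45 (SE 0.46, 95% interval -1.49 to 0.59, limma adjusted p = 0.823). It was -1.02 within the first row of the slide and 0.12 within the second. Leaving out control replicate 1 gave -0.74 and mutant replicate 4 -0.75, while leaving out control replicate 2 gave -0.22 and mutant replicate 1 -0.12.

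Hoxc8 (chromosome 15, 102821238 to 102821297, mm9) was at -4.59, -3.79, -3.75 and -3.53 in the controls and -4.41, -4.50, -4.15 and -3.98 in the mutants. All 4 mutants lay below control replicates 2, 3 and 4 and above control replicate 1. The difference was -0.34 (SE 0.23, 95% interval -0.87 to 0.18, limma adjusted p = 0.821). Without control replicate 1 the groups did not overlap and the difference was -0.57, with a limma adjusted p of 0.837. It was -0.22 without control replicate 4, and -0.14 with normexp background correction.

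Hoxb8 was at -1.60, -0.71, -1.44 and -1.16 in the controls and -1.05, -1.91, -1.75 and -1.26 in the mutants. Control replicate 2 was the highest array and mutant replicate 2 the lowest, with the rest mixed. The difference was -0.26 (SE 0.24, 95% interval -0.82 to 0.29, limma adjusted p = 0.821). It was -0.092 without control replicate 2, -0.13 without mutant replicate 2, -0.41 without mutant replicate 1 and -0.58 with array weights. Hoxd8 lay close together on all arrays, at -1.58 ± 0.11 and -1.53 ± 0.14 (SD, n = 4 each).

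Group 9 is the last before the line. Hoxa9, a regulator of blood progenitors, was at -4.69, -4.78, -4.42 and -5.22 in the controls and -4.50, -4.77, -4.57 and -5.13 in the mutants, a difference of 0.04 (SE 0.20, limma adjusted p = 0.967). Replicate 4 was the lowest array in both groups. Its other probe was above background on 6 arrays and differed by 0.11 between the group means. Hoxb9 was at -3.38, -2.67, -3.31 and -2.93 in the controls and -2.93, -3.63, -2.99 and -3.40 in the mutants, a difference of -0.17 (SE 0.21, limma adjusted p = 0.845). That difference was -0.033 without control replicate 2 and -0.034 without mutant replicate 2, and -0.27 without control replicate 1 or mutant replicate 1. Its groups overlapped, with control replicate 2 the highest array and mutant replicate 2 the lowest.

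Hoxd9 had the dimmest probe of the 25 genes tested. It was at -5.31, -4.75, -5.10 and -5.60 in the controls and -4.50, -4.81, -5.61 and -4.76 in the mutants, and it was not well above background on control replicate 4 and mutant replicate 3. Those 2 arrays were also its lowest. The difference was 0.27 (SE 0.26, 95% interval -0.32 to 0.86, limma adjusted p = 0.821). It was 0.13 without control replicate 4 or mutant replicate 1, 0.42 without control replicate 2 and 0.50 without mutant replicate 3.

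**Figure D3:**
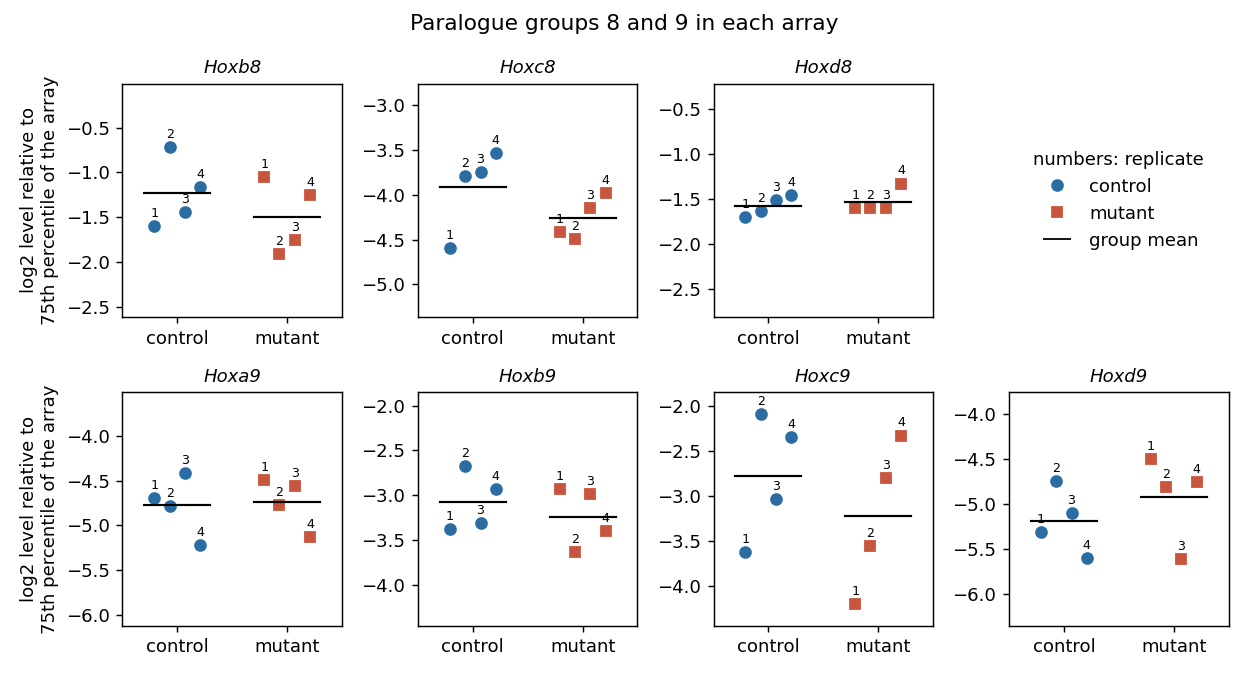
Level of each tested gene of paralogue groups 8 and 9 in each array (log2 intensity minus the 75th percentile; lines are group means; every panel spans 2.6 log2 units around its own centre). Hoxc9 spreads over 2.12 log2 units and Hoxd8 over 0.37, and in every panel the groups overlap.

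Hox genes varied between arrays of a group by a larger median SD than all genes tested, a difference given without a test. The SD within groups had a median of 0.27 over the 25 members and 0.19 over all genes tested, and the members' values ran from 0.10 for Hoxa3 to 0.77 for Hoxc9. Control replicate 2 was among the 2 highest arrays for 15 of the 25 genes, and control replicate 3 among the 2 lowest for 13. Both are controls, so this spread lies within a group. The mutants spread as well: mutant replicate 1 was among the 2 highest for 12 genes and mutant replicate 3 among the 2 lowest for 10. The same counts were not made over all genes tested, so they do not set Hox genes apart. The part of probe brightness in the larger median SD was not tested.

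**Figure D4:**
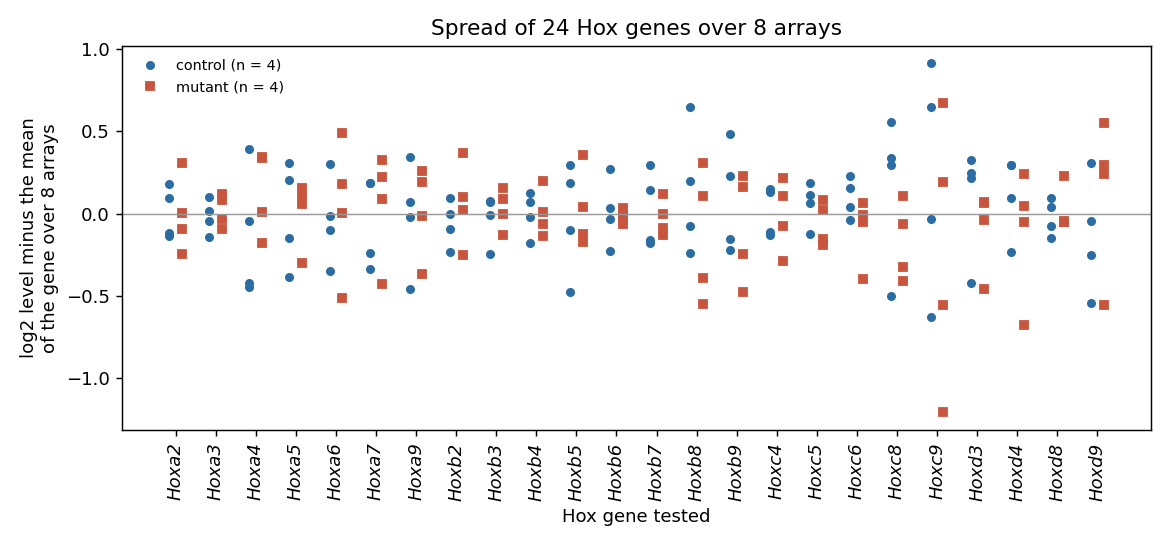
Level of 24 tested Hox genes in each array, as the log2 level minus the mean of that gene over the 8 arrays (circles, 4 controls; squares, 4 mutants). The groups overlap for each of the 24 genes, and Hoxc9 has the widest spread.

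Neighbours within a cluster often rose and fell together from array to array. Pairs that are not neighbours were not examined, so these values do not set neighbours apart from other genes. Over 21 pairs of neighbouring tested genes, Pearson's r across the 8 arrays had a median of 0.537 and was above 0 for 18. Of the 21, 4 pairs had an exact permutation p under 0.05 after Benjamini-Hochberg adjustment over the 21 (two-sided). Hoxb4 and Hoxb5 had r = 0.926 (exact permutation p = 0.00126, adjusted 0.0266) and Spearman's rho = 0.952 (exact permutation p = 0.00114, adjusted 0.0120). Without the 2 arrays farthest from the median of Hoxb4, r was 0.845, and without mutant replicate 1 it was 0.902. Hoxb5 and Hoxb6 had r = 0.837 (exact permutation p = 0.00905, adjusted 0.0475) and rho = 0.905 (exact permutation p = 0.00456, adjusted 0.0319), with r = 0.854 without the 2 farthest arrays.

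Hoxb6 and Hoxb7 had r = 0.811 (exact permutation p = 0.00565, adjusted 0.0396), while rho = 0.786 missed the threshold after adjustment (exact permutation p = 0.0279, adjusted 0.147), and r was 0.617 without the 2 farthest arrays. Outside HoxB, the pair that passed was Hoxa2 and Hoxa3, with r = 0.877 (exact permutation p = 0.00538, adjusted 0.0396), rho = 0.952 (adjusted exact permutation p = 0.0120) and r = 0.761 without the 2 farthest arrays. Pairs of low agreement included Hoxa7 and Hoxa9 (r = -0.487) and Hoxd4 and Hoxd8 (r = 0.013). Neighbouring genes share each array's scaling, and each group or slide row holds only 4 arrays, too few for a correlation within it.

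Hox levels were set against the mean levels of 4 marker lists, and no relation passed after adjustment. The mean level of 10 smooth muscle genes was 2.87 in control replicate 3 and 3.27 to 3.42 in the other controls, and 3.27 to 3.71 in mutants. Control replicate 3 was also the lowest array for Hoxb5 (-0.12, other arrays 0.18 to 0.71) and Hoxa5 (-0.70, others -0.61 to -0.01). Across the 8 arrays Hoxb5 had r = 0.863 with the smooth muscle mean (exact permutation p = 0.00536) and Hoxa5 r = 0.869 with the mean of 13 mesenchyme and fibroblast genes (exact permutation p = 0.00186). Of 100 such relations (25 Hox genes and 4 marker lists), 0 passed after adjustment, with adjusted exact permutation p of 0.223 and 0.186 for those named. Spearman's rho was 0.786 and 0.762 (exact permutation p = 0.0279 and 0.0368, adjusted 0.408 for both), and without the 2 arrays farthest from the median r was 0.492 and 0.714. The median r was 0.457 with smooth muscle, 0.416 with mesenchyme and fibroblast, 0.232 with enteric neuron and glia and -0.250 with epithelium genes. The part of these cells in the Hox levels was not tested.

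**Figure D5:**
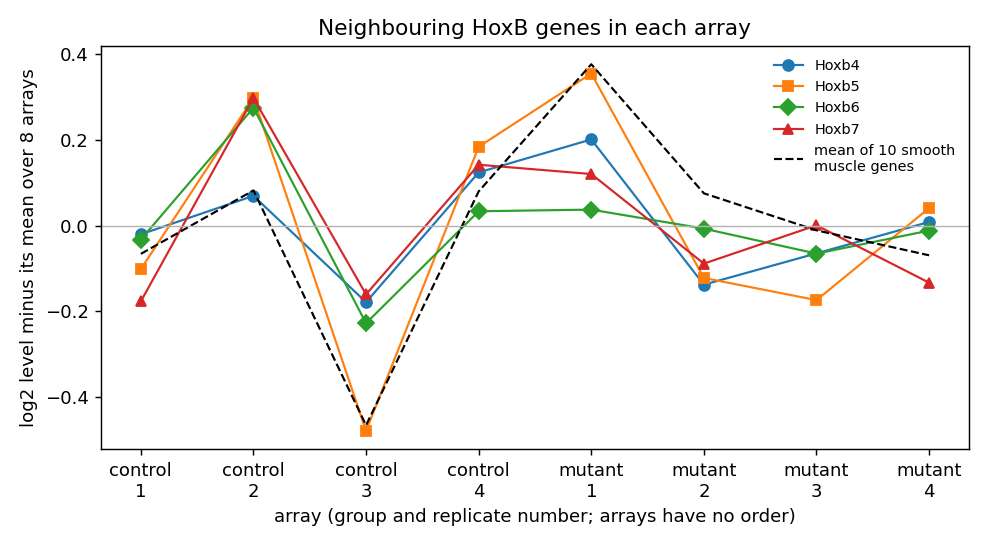
Level of Hoxb4, Hoxb5, Hoxb6 and Hoxb7 in each array, as the log2 level minus its mean over the 8 arrays, with the mean of 10 smooth muscle genes dashed (lines join values of the same gene; arrays have no order). Control replicate 3 is lowest for Hoxb4, Hoxb5 and Hoxb6 and for the smooth muscle mean, and control replicate 2 is highest for Hoxb6 and Hoxb7.

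Partners of Hox proteins were present and did not pass the test. Pbx and Meis proteins are homeodomain cofactors that bind DNA together with Hox proteins. Of 9 such genes, 8 were tested and 0 passed, and all 8 differences were positive, with a median of 0.05. Of all 25354 genes tested, 14485 were higher in mutants and 10869 lower, with a median of 0.03, which is the background for the counts of this and the following lists. All 4 mutants lay above all controls, or all 4 below, for 1183 of the 25354 (4.67%). That share is the background for genes named below for such a separation. Of 17 ParaHox and gut patterning genes, 11 were tested and 0 passed. Among them Cdx2, which sets intestinal identity, was at 4.21 ± 0.24 and 4.33 ± 0.41. Cdx4, Gsx2, Evx1, Evx2, Barx1 and Sox2 were above background on 0 arrays. Evx1 and Evx2 lie beyond the number 13 end of HoxA and HoxD.

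Genes that set or keep Hox expression did not pass either. Of 23 Polycomb, Trithorax and related genes, 22 were tested and 0 passed, 15 higher and 7 lower, with a median of 0.05. Cbx2 of Polycomb complex PRC1 (difference 0.31, SE 0.14) and Ash2l, a subunit of histone methyltransferase complexes (0.22, SE 0.11), had all 4 mutants above all controls, with a limma adjusted p of 0.821 for both. Of 17 genes of retinoic acid, which activates low-numbered Hox genes, and of posterior signals, 15 were tested and 0 passed, 12 higher and 3 lower, with a median of 0.05. Of 17 genes within or beside the clusters, 11 had a probe, 9 were tested and 0 passed. Ttll6 (0.78, SE 0.22, limma adjusted p = 0.698) and Calcoco1 (0.42, SE 0.13, 0.821) had all 4 mutants above all controls.

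As a check of tissue and labels, the lists of epithelium (14 genes), mesenchyme (13), smooth muscle (10) and enteric neuron and glia (12) were all tested, and 0 of their members passed. All 10 smooth muscle genes were higher in mutants, with a median difference of 0.20, and the counts higher and lower were 8 and 6 for epithelium, 8 and 5 for mesenchyme, and 5 and 7 for neuron and glia. In the mesenchyme list Twist1 had all 4 mutants above all controls (0.64, SE 0.22, limma adjusted p = 0.821). Of 14 endocrine genes, 12 were lower in mutants and 2 higher, and 10 passed the test, all lower: Gip, Ghrl, Sst, Nts, Gcg, Cck, Pyy, Sct, Isl1 and Scg2. Isl1 was well above background on 4 arrays (mutants at -6.99 to -6.30) and Gip on 5 (mutants at -6.41 to -5.05). These 2 genes could thus be tested because of their levels in controls. Neurog3, the gene whose promoter drives Cre here, was at 0.15 ± 0.08 in controls and 0.91 ± 0.14 in mutants (SD, n = 4 each); all 4 mutants lay above all controls, and the difference of 0.76 (SE 0.10) had a limma adjusted p of 0.0552. The list was drawn up with earlier results of these arrays known. The Rfx6 probe did not separate the groups (-3.48 to -2.93 in controls, -5.52 to -3.02 in mutants). Mutant replicate 1 stood apart, with an SD of its deviations from its group of 0.504 against 0.215 to 0.294 for the others. Without it, 0 Hox genes passed and their median difference was -0.045, against 0.0017 over all genes.

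Markers of gut regions give the position of the samples by other genes. Large intestine genes Car1, Car4 and Aqp8 were well above background on all 8 arrays, while the hindgut members Hoxb13 and Hoxd13 were on 0 and Hoxa13 on 1. The mean of 7 proximal small intestine genes was 2.12 to 2.33 in controls and 2.09 to 2.36 in mutants, and that of 6 ileal genes 2.15 to 2.64 and 2.67 to 2.95. In the ileal list Fabp6 alone had all 4 mutants above all controls (2.33, SE 0.46, limma adjusted p = 0.295). Of the 6 ileal genes, 5 were higher in mutants and 1 lower (Slc10a2, -0.32), with a median difference of 0.21. The ileal mean thus leans on Fabp6. Of 11 stomach genes, 5 were tested and 0 passed, and 3, Barx1 and Sox2 among them, were on 0 arrays. Among the 5, Muc5ac and Pgc were well above background on all 8 arrays. Mutant replicate 3 was high for the mean of the 5 tested stomach genes (-1.41, other arrays -3.98 to -3.36). On that array Tff2 was at 2.89 (others -4.64 to -2.94) and Gkn3 at 2.33 (others -2.43 to -1.88). Muc5ac (-3.88, others -4.24 to -3.54) and Pgc (-2.94, others -3.32 to -2.96) were near the other arrays. The mean of 9 pancreas genes ran from -4.10 to -3.26 over controls and from -2.69 to -1.10 over mutants; 0 passed, and Amy2a5 (6.09, SE 1.00, limma adjusted p = 0.150) and Cela3b (2.39, SE 0.59, 0.540) had all 4 mutants above all controls. Of 15 kidney, limb and body wall genes, 9 were tested and 0 passed, and Umod, Tbx5, Myog and Col2a1 were on 0 arrays. The part of any of these tissues in the Hox levels was not tested.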

How the data were processed

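RNA of 8 samples was measured on 8 arrays of design 028005, all on 1 slide. TRI-reagent was used for extraction and Cy3 for labelling, per the labels' protocols. Per the file headers and the submitters' processing notes, the authors read the slide with Agilent Feature Extraction 10.10.1.1 and deposited linear spot intensity values, with spatial and multiplicative detrending and surrogates for low values on and the global background correction off, so dim probes have no exact level. The deposited value table was read as quantile-normalised intensity, since its 8 columns share their quartiles and rank as the median signal of the matching array (rho at least 0.99997 across spots). The build of the probe positions is mm9.

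Values were log2 intensity minus the log2 75th percentile of each array over 59305 non-control spots, with outlier spots left out and spots of a probe averaged (55681 probes). The probe with the highest mean was kept for each gene name, and genes well above background on at least 4 arrays were tested (25354 of 36161). The test was two-sided limma 3.58.1 (R 4.3.3; lmFit, then eBayes) without covariates, adjusted by Benjamini-Hochberg over all genes tested. The script was tested on simulated data of 25335 genes. It called 59% of 100 genes changed by 1 log2 unit and 90% of 100 changed by 2, with 5 false calls. Some genes enter the counts but are not reported here by name. The number of arrays limits the precision. Correlations used exact permutation over the 8 arrays. The members and gene lists were chosen with earlier results of these data known. Values in every array are given for the 3 largest differences in each direction, the 3 largest SDs within groups and tested members of groups 9 to 13; other lists are given by counts, with called genes and up to 3 whose groups did not overlap. Hoxc6 and the genes in the marker and correlation paragraphs were added after their values were seen. For mutant replicates 2 to 4 the description field gives Rfx genes other than Rfx6 and was left unused. Alternatives covered background correction, scaling, filter, probe choice, array weights, slide row, replicate number and leaving out each array.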

Additional observations from a re-analysis of the deposited data

Results flagged for a closer look

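In 56 groups of 4 arrays (the 25 tested Hox genes and 3 array measures, in each group), an array stood apart in 2 (a gap over the 95% limit of Dixon's test). Chance flags about 1 group in 20, which is 2.8 of 56. Hoxd3 was at -3.52 on control replicate 3, with the other controls at -2.88 to -2.78. Hoxd8 was at -1.33 on mutant replicate 4, with the other mutants at -1.61 to -1.60.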

How the results depend on the processing

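Over 19 alternatives, 0 Hox genes passed in any, and the smallest adjusted p was 0.447 (Hoxb8, array weights). At an unadjusted p under 0.05 there were 2 members with array weights, 2 without control replicate 1, 1 without control replicate 3 and 1 without mutant replicate 3. The median Hox difference stayed between -0.11 and 0.03. Groups did not overlap for 0 to 1 Hox genes when 1 array was left out (1 without control replicate 1, control replicate 3 or mutant replicate 2, Hoxc8 and Hoxd3 for the controls), and for 1 (Hoxc10) without a filter on dim probes. The shares over all genes under these settings are not given. Neither these counts nor those at an unadjusted p can therefore be read as a result about Hox genes. The count over all genes was 15, and 27 with normexp, 41 with array weights and 9 to 20 when 1 array was left out. Same-numbered samples did not deviate together (correlations -0.092 to 0.091), and with the replicate number as a block 7 genes passed, 0 of them Hox genes.

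Of 455 differences of 24 Hox genes under the alternatives, 416 kept their sign and 39 turned, all among 13 genes with a difference of 0.12 or less. With array weights the value was -0.032 for Hoxa3, -0.11 for Hoxa5, -0.072 for Hoxb2, -0.11 for Hoxb4 and -0.16 for Hoxb5. With the deposited table it was 0.0027 for Hoxa2, -0.0071 for Hoxa5 and -0.0059 for Hoxb4. Hoxa2 was at 0.0016 with normexp and 0.0034 with the array median, and Hoxb4 at -0.012 with quantile normalisation. The cause was not tested. When 1 array was left out, the difference ran from -0.12 to 0.068 for Hoxa2, -0.12 to 0.11 for Hoxa5, -0.063 to 0.0496 for Hoxb4, -0.069 to 0.27 for Hoxa6, -0.10 to 0.064 for Hoxb6, -0.12 to 0.0398 for Hoxb7, -0.097 to 0.071 for Hoxc4, -0.0057 to 0.074 for Hoxa3, -0.019 to 0.11 for Hoxb3, -0.10 to 0.16 for Hoxb5, -0.11 to 0.17 for Hoxa9 and -0.026 to 0.082 for Hoxd8. Among genes that kept their sign it ran from 0.0096 to 0.27 for Hoxa7, -0.18 to -0.076 for Hoxc5, -0.35 to -0.061 for Hoxd3 and -0.34 to -0.036 for Hoxd4. With normexp the value was -0.063 for Hoxb9, -0.23 for Hoxc9 and 0.15 for Hoxd9, and with array weights -0.41 for Hoxb9. Probes below background and the number of arrays limit what could be seen in groups 10 to 13.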
